A study of Rattus norvegicus with 8 samples.

Results

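The genes described here build the postsynaptic side of the synapse and the adhesion contacts that hold a synapse together. They were chosen by name from a list of 36 scaffold, kinase, receptor-trafficking and adhesion genes. The rule uses names and no measured value, but the list was chosen with earlier results of these data known. A probe carrying the name was found for 35 of the 36, with 73 probes in all, and 68 of these passed the filter on dim probes, at least 1 for each of the 35 genes. No probe named Lrrtm1 was analysed here. The 35 genes were tested among 22596 in the whole data set.

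RNA came from hippocampal neurons of Wistar rats taken at postnatal day 0 to 1 and grown for 10 days in culture. SIRT6 is a NAD-dependent deacetylase of chromatin, and the study asked what it does in the shaping of neurons. All cultures received lentivirus on day 3, at a multiplicity of infection of 6, and stayed with it for 7 days. In 4 control samples the virus carried a scrambled shRNA, and in the 4 others it carried an shRNA that targets rat Sirt6. Each group rests on 1 shRNA sequence, so other effects of either vector cannot be told apart from the lowering of Sirt6. Nothing in the labels ties the 4 samples to separate dishes or rats, so each p-value measures sample-to-sample spread alone, and that spread may be technical.

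At an excitatory synapse, glutamate receptors are held in the postsynaptic density by layers of scaffold proteins. Membrane-associated guanylate kinases (MAGUKs, encoded by the Dlg genes) bind the receptor tails, the Dlgap proteins bind the MAGUKs, and Shank and Homer proteins form the deeper layer that reaches toward actin and metabotropic receptors. Neurexins on the axon bind neuroligins and LRRTM proteins on the dendrite, Slitrk proteins bind receptor phosphatases of the axon, and SynCAM proteins (Cadm genes) bind each other across the cleft.

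Each sample was read on a one-colour array, and the values below are processed signals, which are spot intensities after background subtraction. The arrays were of like brightness: the 75th percentile of the processed signal lay between 313 and 342, and 60.4% to 65.3% of probes were well above background. A level is the log2 of that signal minus the array's own 75th percentile, and every change below is the mean level with the Sirt6 shRNA minus that with the scrambled shRNA, in log2, with its standard error from limma and n = 4 arrays per group. A gene was called at a limma adjusted p under 0.05 over all genes tested. Sirt6 itself gave 1337, 1318, 1347 and 1343 with the scrambled shRNA and 486, 489, 484 and 446 with its own shRNA, a change of -1.53 ± 0.040 (SE; adjusted p = 5.55e-06) that left 34.6% of the control level. The arrays lay on 1 slide, the control samples in row 1 and the Sirt6 shRNA samples in row 2, and the effect of the row cannot be told apart from that of the shRNA.

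Markers of the cell types in the culture also moved. All 7 astrocyte markers were called lower, and their summed signal ran from 73750 to 82097 with the Sirt6 shRNA against 103064 to 110267 in the control. Of 7 neuron markers, 3 were called higher (Tubb3, Map2 and Rbfox3) and 1 lower (Stmn2), with sums of 37395 to 41321 against 36081 to 39192. Microglial markers were called lower for 3 of 7, with sums of 3070 to 5469 against 4564 to 6070. Sirt6 shRNA replicate 2 stood apart in these: its sum of 5469 lay within the control range, while the other three Sirt6 shRNA arrays lay between 3070 and 3439, below every control array. Aif1, a microglial calcium-binding protein, read 4244 on that array against 2108 to 2473 on the other three. Values without this array are given below wherever they change a call among the 35 genes, and for the partner genes as counts only. Oligodendrocyte-lineage markers were called lower for 2 of 7, with sums of 12221 to 13026 against 14251 to 15073. Fibroblast markers were called higher for 3 of 4, with sums of 6063 to 6750 against 4664 to 5296, and mural and endothelial markers for 3 of 6, with sums of 3688 to 4393 against 1081 to 1357. Most of that last sum is Tagln, a smooth-muscle actin-binding protein, whose mean was 3516 against 780; without it the sums were 471 to 525 against 414 to 454, with Acta2 and Myh11 called higher and Pecam1 at -0.46 and Pdgfrb at -0.074 not called. No marker list was at 0 in either group, though Lum and Cldn5 were too dim to test. In these bulk samples fewer cells of a type and less RNA per cell cannot be told apart, and the part of these shifts in the changes below was not tested.

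The scaffold and adhesion genes moved in both directions and by small amounts. Of the 35 genes, 6 were called higher (Shank1, Grip2, Dlg3, Shank2, Nlgn1 and Camk2b) and 8 lower (Cadm2, Homer3, Dlgap2, Shank3, Cadm1, Cnih2, Dlgap4 and Dlgap3). The 14 called genes are 40% of those tested, beside 30.4% of all genes called, 15.6% higher and 14.8% lower. Their median change was -0.020 and their median absolute change 0.14, beside 0.021 and 0.14 over all genes. Cadm2 alone passed 1.5-fold. Without Sirt6 shRNA replicate 2, 16 of the 35 genes were called, 8 higher and 8 lower. In 17 of the 35 genes the 4 arrays of each group did not overlap, 8 with the Sirt6 shRNA above and 9 below, where 33.4% of all genes did not overlap. All 14 called genes were among these 17, and the other three were Dlgap1, Camk2g and Slitrk1.

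Scaling on the spike-in probes left 3 of the 14 calls (Shank1, Homer3 and Cadm2), and centring on the median ended those of Dlg3, Shank2, Nlgn1 and Camk2b, with no called gene changing direction in either. Among all called genes 51.3% were higher, a share that was 35.2% with median centring and 66.9% with spike-in scaling.

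**Figure D1:**
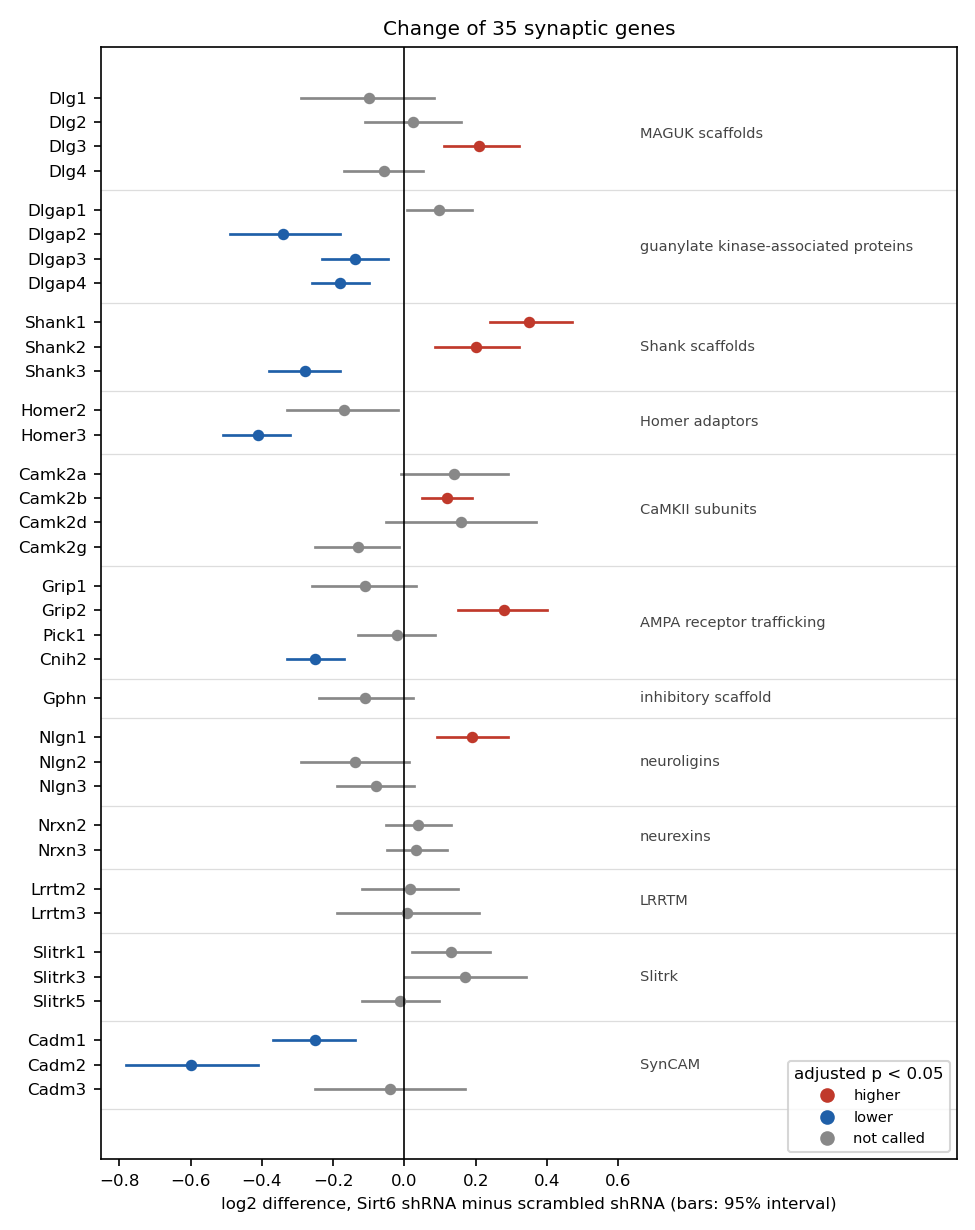
Change of the 35 genes on the log2 scale (horizontal axis, Sirt6 shRNA minus scrambled shRNA), grouped by role; points are the estimates and bars the 95% intervals from limma, n = 4 arrays per group. Of the 35 points, 6 red ones were called higher and 8 blue ones lower; Cadm2 lies farthest left at -0.60 and Shank1 farthest right at 0.35.

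**Figure D2:**
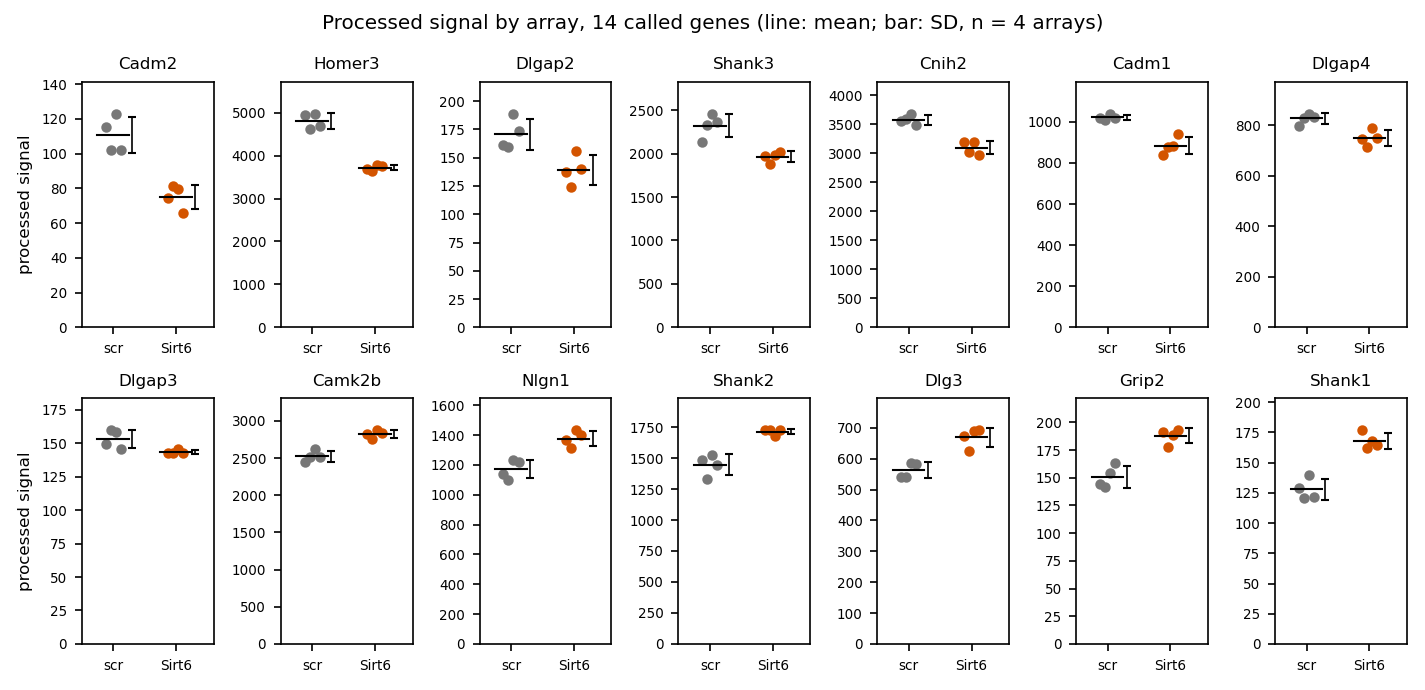
Processed signal of the 14 called genes on each array (vertical axes from 0, intensity units), scrambled (scr) and Sirt6 shRNA (Sirt6) arrays side by side; lines are means and bars the SD over 4 arrays. The points of the groups lie apart in each panel except that of Dlgap3, where the signals, 146 to 159.8 against 143 to 146, touch.

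Among the 4 MAGUK scaffolds 1 was called. Dlg3, which encodes SAP102, the family member known for its part at young synapses, gave signals of 541, 539.8, 586 and 584 on the scrambled arrays and 674, 626, 689 and 693 on the Sirt6 shRNA arrays (replicates 1 to 4 in order, as throughout). Every Sirt6 shRNA array was above every control array, and Dlg3 rose by 0.21 ± 0.045 (adjusted p = 0.010), to 116% of the control level. Its brightest probe, A_44_P1084320, lies at chrX:88828313-88828372 in build rn4, the build of all coordinates here, and its other probe changed by 0.17 and was not called (adjusted p = 0.0687).

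Dlg4, which encodes PSD-95, the most studied scaffold of the density, was not called. Its signals were 1829.7, 2144, 2057 and 2078 against 2026, 1923, 2093 and 1958, so the groups overlapped, and the 95% interval of its change ran from -0.17 to 0.053. Dlg1, which encodes SAP97, had a change of -0.10 ± 0.080 with overlapping groups. Dlg2, which encodes PSD-93, read 4062, 4013, 4187 and 4149.6 against 4545, 3767, 4534 and 4370 on its brightest probe, a change of 0.024 ± 0.059. Of the other 3 probes for Dlg2, A_44_P1081845 read 52.3, 45.4, 55.5 and 50.5 against 59.7, 60, 61.5 and 61.2 and was called higher by 0.21 (adjusted p over all probes = 0.0290), while the others, at 0.081 and 0.054, were not.

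The Dlgap genes encode the guanylate kinase-associated proteins that join MAGUKs to Shank proteins, and 3 of the 4 were called, all lower. Dlgap2 gave 161, 159.6, 189 and 174 in the control and 137, 124, 156 and 139.9 with the Sirt6 shRNA. All Sirt6 shRNA arrays lay below the control arrays on the normalized scale, and Dlgap2 fell by 0.34 ± 0.067 on the log2 scale (adjusted p = 0.00721), to 79.1% of the control level. Dlgap4 read 796, 830.1, 846 and 834 against 744, 713, 787 and 751. Its groups did not overlap, and it fell by 0.18 ± 0.035 on the log2 scale (adjusted p = 0.00570). The Dlgap4 probe, A_44_P212567, crosses an exon junction: its 60 bases are placed over chr3:147167184-147173826.

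Dlgap3, also known as SAPAP3, had the smallest change of the called genes that were lower. Its signals were 149.6, 159.8, 158 and 146 against 143, 143, 146 and 143, a change of -0.14 ± 0.039 (adjusted p = 0.0326). That call was lost when any 1 array other than scrambled replicate 4 was left out, with adjusted p between 0.0524 and 0.0843. Without Sirt6 shRNA replicate 2 the change was -0.14 (adjusted p = 0.0555). With every array kept, the Dlgap3 call was also lost under spike-in scaling, at -0.053 (adjusted p = 0.696). It was lost too with no filter on dim probes, a trended and robust fit, or the replicate number as a block (adjusted p = 0.0671, 0.0633 and 0.0677). In all, 11 of 21 alternative settings ended it. Dlgap1, also known as GKAP, read 3254, 3194, 3454 and 3261 against 3658, 3413, 3721 and 3683. Its 4 Sirt6 shRNA arrays lay above the control, but its change of 0.096 ± 0.039 was not called (adjusted p = 0.0980). On the brightest probes of all 4 Dlgap genes, then, the groups lay apart, 3 downward and 1 upward. A second kept Dlgap1 probe, A_64_P071213, changed by 0.12 with overlapping groups and was not called (adjusted p over all probes = 0.171).

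All 3 Shank genes, which encode the large scaffolds that tie the Dlgap layer to Homer and to actin, were called, and not in the same direction. Shank3 is the family member known from Phelan-McDermid syndrome. It gave 2138, 2324, 2459.8 and 2365 in the control and 1975, 1879, 1978 and 2023 with the Sirt6 shRNA, from probe A_64_P060677 at chr7:127877770-127877829. The groups did not overlap, and Shank3 fell by 0.28 ± 0.044 on the log2 scale (adjusted p = 0.00256), to 82.3% of the control level. A second Shank3 probe, A_44_P1156356, read 42.4, 38.5, 44.6 and 40.7 against 40.9, 35.5, 39.5 and 39.9, with overlapping groups and a change of -0.13 that was not called (adjusted p = 0.135).

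Shank2 read 1488, 1328, 1526 and 1447 against 1723, 1725, 1679.9 and 1726. Every Sirt6 shRNA array was higher, and Shank2 rose by 0.20 ± 0.052 (adjusted p = 0.0202). Without Sirt6 shRNA replicate 1 the adjusted p was 0.0503 and without replicate 4 it was 0.0512, at changes of 0.20 and 0.19. Its other probe was well above background on 2 control arrays and on none with the Sirt6 shRNA, and was not kept.

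Shank1 gave 129, 121, 139.6 and 122 in the control and 177, 162, 168 and 165 with the Sirt6 shRNA on its brightest probe, A_44_P1101001, at chr1:94837542-94837601. The groups did not overlap, and this probe was higher by 0.35 ± 0.051 (adjusted p = 0.00171). The other 2 Shank1 probes were not called, and their groups overlapped. A_64_P102996, at chr1:94835783-94835842, read 34.3, 36.6, 34.9 and 32.3 against 29.7, 34.5, 35.9 and 29.5, a change of -0.14 (adjusted p over all probes = 0.193). A_64_P102990, at chr1:94839533-94839592, read 39.1, 32.5, 29.7 and 26.9 against 37.0, 35.6, 32.8 and 34.0, a change of 0.092 (adjusted p over all probes = 0.614). With the mean of the 3 probes Shank1 changed by 0.10 and was not called (adjusted p = 0.235), so its call rests on 1 probe.

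The letters of the 3 Shank1 probes are shown because their values part. They are given 5′ to 3′ from the array files, as the last 30 bases for the first pair and as the whole 60 for the third. Capitals in the first mark its final stretch made of A and C alone, and in the third the stop codon that ends the frame in which the rest of the probe has none.

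Shank1 A_44_P1101001: ccatAACCAAAACAAAAAACAAACAAAAAA

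Shank1 A_64_P102996: aagctccagcagtttggtgggtcctctacc

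Shank1 A_64_P102990: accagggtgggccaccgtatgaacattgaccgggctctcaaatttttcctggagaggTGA

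The capital stretch of A_44_P1101001 is 26 bases long and is the longest run of only 2 kinds of base among the 73 probes, whose median is 8. The A content of the whole 60-base probe is 45.0%, beside a median of 30% among the 73 probes. Whether the capital stretch bears on the signal of the probe was not tested.

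Homer proteins link Shank to metabotropic glutamate receptors and to calcium channels of the endoplasmic reticulum. Homer3 gave 4948, 4608, 4977 and 4696 in the control and 3695, 3650.2, 3769 and 3751 with the Sirt6 shRNA on A_44_P1113639, at chr16:19616456-19616515. The groups lay far apart for their spread, with means of 4807 ± 183 and 3716 ± 54.1 (SD, n = 4), and Homer3 fell by 0.41 ± 0.041 on the log2 scale (adjusted p = 0.000313), to 75.2% of the control level. It ranked 670 of 22596 genes by p, the first of the 35. A second probe, A_44_P463822 at chr16:19624630-19624689, read 85.4, 74.7, 84.8 and 73.7 against 56.9, 52.4, 55.2 and 50.1 and was lower by -0.61 ± 0.065 (adjusted p over all probes = 0.000461). The third, A_44_P1164181, read 42.8, 48.9, 57.0 and 49.4 against 47.8, 44.1, 44.1 and 37.9, overlapped between the groups and was not called at -0.23 (adjusted p over all probes = 0.0846).

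The Homer3 probes lie at separate places and 2 of them carry the fall. The last 30 bases are shown for the first probe and the first 30 for the other two, with capitals marking the copies of AATG, the 4-base word that repeats in the first.

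Homer3 A_44_P1113639: tgAATGAATGaataaacaAATGaacaAATG

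Homer3 A_44_P463822: caagcatgcacttaccgtgtcctatttcta

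Homer3 A_44_P1164181: ggggcacttacacatatgtacacccacaca

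Homer2, a close relative of Homer3 with the same binding domain, read 261, 253, 274 and 243 against 237, 255, 246 and 205. The groups overlapped, since Sirt6 shRNA replicate 2 lay inside the control range. Its change of -0.17 ± 0.067 was not called (adjusted p = 0.0896), and without that replicate it was -0.22 (adjusted p = 0.0387).

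CaMKII, the calcium- and calmodulin-dependent kinase that is abundant in the postsynaptic density, is built from 4 kinds of subunit, and 1 of the 4 genes was called. Camk2b, whose product also binds actin, gave 2450.3, 2509, 2628 and 2509.9 against 2830.1, 2759, 2877 and 2832. Every Sirt6 shRNA array was higher, and Camk2b rose by 0.12 ± 0.031 (adjusted p = 0.0213). Leaving out scrambled replicate 2 or 4 ended that call, at changes of 0.12 (adjusted p = 0.0546 and 0.0537). So did leaving out Sirt6 shRNA replicate 1 or 4, at 0.12 and 0.11 (adjusted p = 0.0554 and 0.0501). A second kept probe for Camk2b changed by 0.043 and was not called (adjusted p over all probes = 0.436).

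Camk2a, the subunit best known for its part in long-term potentiation, was not called on any of its 3 probes. Its brightest probe, A_44_P296812 at chr18:56950820-56950879, read 164, 149.9, 154 and 152 against 186, 156, 188 and 174. The groups overlapped, with Sirt6 shRNA replicate 2 inside the control range, and the change was 0.14 ± 0.065 (adjusted p = 0.143). Without that replicate it was 0.19 (adjusted p = 0.0371). The other 2 probes each changed by 0.35, with adjusted p over all probes of 0.0700 and 0.0590, and the mean of the 3 probes gave 0.28 (adjusted p = 0.00295). Both of these cross exon junctions by their coordinates, as their 60 bases are placed over chr18:56903621-56918266 and chr18:56941217-56943617. They are printed because they moved more than the probe that stands for the gene.

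Camk2a A_44_P101625: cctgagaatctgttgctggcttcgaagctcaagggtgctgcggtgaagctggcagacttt

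Camk2a A_44_P1360452: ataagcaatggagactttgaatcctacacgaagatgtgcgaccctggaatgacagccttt

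Camk2g, which carries calmodulin to the nucleus, read 4912, 4536, 5252 and 4539 against 4433, 4596, 4562 and 4441. On the normalized scale its 4 Sirt6 shRNA arrays lay below the control arrays, though the change of -0.13 ± 0.051 was not called (adjusted p = 0.0860). Camk2d changed by 0.16 ± 0.092 with overlapping groups (adjusted p = 0.228).

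Of the 4 genes that sort AMPA receptors, 1 was called higher and 1 lower. Grip2, a PDZ protein that binds AMPA receptor tails, gave 144, 142, 154 and 163 in the control and 191, 178, 189 and 193 with the Sirt6 shRNA. The groups did not overlap, and Grip2 rose by 0.28 ± 0.054 (adjusted p = 0.00645), to 121% of the control level, on probe A_64_P041045 at chr4:125952082-125952141. Its relative Grip1 changed by -0.11 ± 0.063 with overlapping groups (adjusted p = 0.215).

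Cnih2 encodes cornichon-2, an AMPA receptor auxiliary subunit that aids export of the receptor and slows its closing. It gave 3554, 3583, 3684 and 3487 against 3199, 3024, 3192 and 2973, from probe A_64_P077192 at chr1:207716546-207716605. Every Sirt6 shRNA array was lower, and Cnih2 fell by 0.25 ± 0.034 on the log2 scale (adjusted p = 0.00141), to 84.1% of the control level. Pick1, which takes part in AMPA receptor uptake, had overlapping groups and a change of -0.020 with a 95% interval from -0.13 to 0.085.

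Gphn encodes gephyrin, the scaffold of inhibitory synapses and the only member of that role here. Its signals were 1400.4, 1426, 1332 and 1355 against 1251, 1375, 1285 and 1345. The groups overlapped, and its change of -0.11 ± 0.058 was not called (adjusted p = 0.189), with a 95% interval from -0.24 to 0.024.

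Neuroligins are the dendritic partners of neurexins, and 1 of 3 was called. Nlgn1, the neuroligin of excitatory synapses, gave 1142, 1102, 1231 and 1217 against 1365, 1310.5, 1434 and 1399.7. Every Sirt6 shRNA array was higher, and Nlgn1 rose by 0.19 ± 0.043 (adjusted p = 0.0128), to 114% of the control level, on A_44_P579147 at chr2:111188173-111188232. The other 2 Nlgn1 probes changed by 0.13 and 0.10 and were not called, and the mean of the 3 probes gave 0.14 (adjusted p = 0.0565). They read 619, 632, 701 and 679 against 726, 673, 815 and 752, and 288, 302, 307 and 306 against 346, 295, 362 and 332, with an overlap in each that comes from Sirt6 shRNA replicate 2.

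Nlgn2, the neuroligin of inhibitory synapses, read 1336, 1446, 1237 and 1427 against 1268, 1222, 1295 and 1297. The groups overlapped through scrambled replicate 3, and the change of -0.14 ± 0.066 was not called (adjusted p = 0.150). Without that array it was -0.20 (adjusted p = 0.0163). Nlgn3, found at both kinds of synapse, changed by -0.079 ± 0.046 with overlapping groups (adjusted p = 0.234).

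Neither neurexin was called on its brightest probe, and 0 of 2 had an unadjusted p under 0.05 in limma's test. Nrxn2 read 9376, 9243, 9415 and 9165 against 9793, 9507, 9934 and 10081, and its change of 0.039 ± 0.039 had a 95% interval from -0.051 to 0.13. Its other kept probes changed by -0.12 and -0.28, with overlapping groups, and were not called (adjusted p over all probes = 0.383 and 0.154). Nrxn3 read 1832, 1833, 1899 and 1873 against 1977, 1900.3, 1959.7 and 1991, a change of 0.033 ± 0.036 with a 95% interval from -0.050 to 0.12. Neurexin genes have several promoters and many spliced forms, and the 6 kept Nrxn3 probes changed by between -0.14 and 0.20. A_42_P521320, at chr6:113348549-113348608, lies upstream of 4 of the others and read 275, 266, 332 and 300 against 358, 329, 359.5 and 333. It was the 1 called Nrxn3 probe, higher by 0.20 ± 0.061 (adjusted p over all probes = 0.0438). A_64_P080530, at chr6:113904869-113904928, ends in a stop codon and read 239, 268, 260 and 279.9 against 299, 262, 273 and 289.9, a change of 0.063 (adjusted p over all probes = 0.507).

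The first 30 bases of the called probe and all 60 of the probe that ends in a stop codon (capitals) show the places compared within Nrxn3.

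Nrxn3 A_42_P521320: aacatcggacttgaggtaccaagaaagcag

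Nrxn3 A_64_P080530: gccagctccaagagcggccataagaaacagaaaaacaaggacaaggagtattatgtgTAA

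LRRTM proteins are leucine-rich repeat partners of neurexins. Of the roles among the 35 genes, the 2 LRRTM genes tested, Lrrtm2 and Lrrtm3, had the smallest changes. Lrrtm2 read 145, 151, 145 and 131 against 153, 149, 143 and 148, a change of 0.017 ± 0.059. Lrrtm3 read 33.9, 36, 35.8 and 30.4 against 34.2, 36.2, 40.9 and 30, a change of 0.0074 ± 0.088. In both genes the groups overlapped. The 95% intervals, -0.12 to 0.15 and -0.19 to 0.21, leave room for changes as large as several of those called elsewhere. Their relative Lrrtm4, listed with the adhesion partners below, was called higher at 0.14 ± 0.045 (adjusted p = 0.0485), and its groups did not overlap.

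Of 3 Slitrk genes 0 were called, though 2 had an unadjusted p under 0.05 in limma's test. Slitrk1, which is known from rare variants in Tourette syndrome, read 1865, 1828, 1953 and 1809 against 2005, 2064, 2113 and 2217. Its Sirt6 shRNA arrays all lay above the control, yet its change of 0.13 ± 0.048 missed the threshold (adjusted p = 0.0725). Slitrk3, which acts at inhibitory synapses, read 788, 738, 773 and 711 against 927, 776, 989.7 and 810.4. The groups overlapped and the change was 0.17 ± 0.073 (adjusted p = 0.114), or 0.22 without Sirt6 shRNA replicate 2 (adjusted p = 0.0477). Slitrk5 changed by -0.013 ± 0.048 with overlapping groups (adjusted p = 0.865).

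SynCAM proteins are immunoglobulin-domain adhesion molecules that span the cleft, and 2 of 3 were called, both lower. Cadm2, or SynCAM 2, had the largest change of the 35 genes. It gave 115, 102, 123 and 102 in the control and 74.3, 81.2, 79.4 and 65.8 with the Sirt6 shRNA, from its 1 probe A_44_P548857 at chr11:4389022-4389081. The highest Sirt6 shRNA value lay below the lowest control value, and Cadm2 fell by 0.60 ± 0.080 on the log2 scale (adjusted p = 0.00123), to 66% of the control level, a 1.51-fold difference with a 95% interval from -0.78 to -0.41 in log2.

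Cadm1, or SynCAM 1, read 1021, 1008, 1040.4 and 1018 against 838, 878, 881 and 939. The groups did not overlap, and Cadm1 fell by 0.25 ± 0.050 on the log2 scale (adjusted p = 0.00702), to 84% of the control level. Its second probe read 1039, 919.6, 986 and 963 against 828, 814, 839 and 828 and was lower by -0.28 (adjusted p over all probes = 0.00526). The pair overlaps, at chr8:51108720-51108779 and chr8:51108741-51108800, so their likeness is not independent. Cadm3, whose probe crosses an exon junction, read 115, 89.4, 107 and 100.2 against 99.1, 108, 113 and 91.7, with overlapping groups and a change of -0.041 ± 0.090 (adjusted p = 0.765).

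For the SynCAM genes, the first 30 bases of the Cadm2 probe and both whole Cadm1 probes are given, with capitals marking the 39 bases that the Cadm1 probes share. The shared stretch ends in TAG, a stop codon in the frame in which the first of them has no other.

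Cadm2 A_44_P548857: acaccatcagtgaagattataccatccact

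Cadm1 A_64_P038041: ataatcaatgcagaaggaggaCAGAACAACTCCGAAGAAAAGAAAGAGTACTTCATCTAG

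Cadm1 A_42_P716999: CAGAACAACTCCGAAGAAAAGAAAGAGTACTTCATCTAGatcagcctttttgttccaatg

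Several probes of 1 gene were a further check, since 22 of the 35 genes had more than 1 kept probe. Of the 68 kept probes, each tested alone, 8 were called higher and 10 lower, where 28.4% of all kept probes were called. In no gene were probes called in both directions. Cadm1 was the 1 gene with every kept probe called, 8 genes had some probes called and others not, and 13 had none. Shank1 had the widest range between its probes, from -0.14 to 0.35, ahead of Homer3 (-0.61 to -0.23) and Nrxn3 (-0.14 to 0.20). The 5 probes left out for dimness belong to Dlgap1, Shank2, Camk2b, Camk2d and Grip2, each of which kept another probe.

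By their coordinates 8 of the 73 probes cross an exon junction, and by their letters 6 end in a stop codon in a frame that has no earlier one within the probe. Exon and UTR placement of the other probes was not analysed here.

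**Figure D3:**
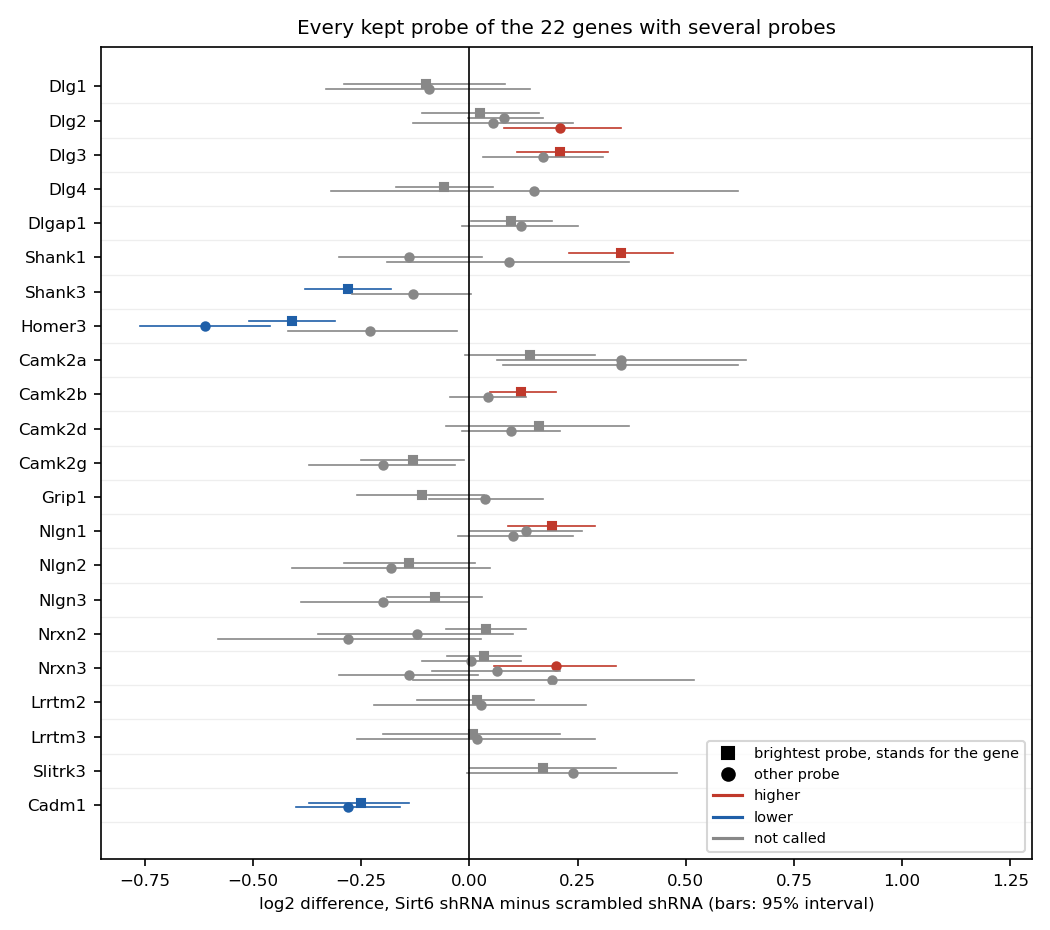
Change of every kept probe for the 22 genes with several (horizontal axis, log2, Sirt6 shRNA minus scrambled shRNA); squares are the brightest probe of a gene, circles its other probes, bars the 95% intervals, n = 4 arrays per group. The Shank1 probes run from -0.14 to 0.35, while the Cadm1 pair lies at -0.28 and -0.25.

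Relatives within 1 family were compared directly, by taking the difference between their levels on each array and testing how that difference moved with the Sirt6 shRNA. Of 34 pairs, 17 had groups that did not overlap, which gives 0.0286 in the two-sided exact permutation test, the smallest p that 4 arrays against 4 allow. Adjusted over the 34 pairs that p is 0.0571, so no pair passed 0.05, while all 17 had an unadjusted p under it. The share of such pairs among other genes was not measured, and 33.4% of all single genes did not overlap. Several of the 17 pairs share a gene, so they are not separate results. Except where an overlap is named, the groups of the pairs below lay apart.

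Shank1 minus Shank3 had the largest shift, 0.63 ± 0.061 (SE), but that value rests on the 1 Shank1 probe that was called. With the mean of each gene's probes it was 0.31, below Shank2 minus Shank3 at 0.41 and Cadm2 minus Cadm3 at -0.56, which then had the largest shift. On the brightest probes Shank2 minus Shank3 moved by 0.49 ± 0.065, Cadm2 minus Cadm3 by -0.56 ± 0.060 and Cadm1 minus Cadm2 by 0.35 ± 0.11. Dlgap1 minus Dlgap2 moved by 0.43 ± 0.057, Grip1 minus Grip2 by -0.39 ± 0.066, Nlgn1 minus Nlgn2 by 0.33 ± 0.080 and Dlg1 minus Dlg3 by -0.31 ± 0.079, though with the mean of probes the groups of this last pair overlapped. The neurexin pair moved by 0.0057 ± 0.016 with overlapping groups, and Homer2 minus Homer3 by 0.24 ± 0.078, also with overlap (exact permutation p = 0.0857). With the mean of probes Nrxn2 minus Nrxn3 moved by -0.179, again with overlap. Homer2 minus Homer3 then moved by 0.244, and its groups lay apart.

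**Figure D4:**
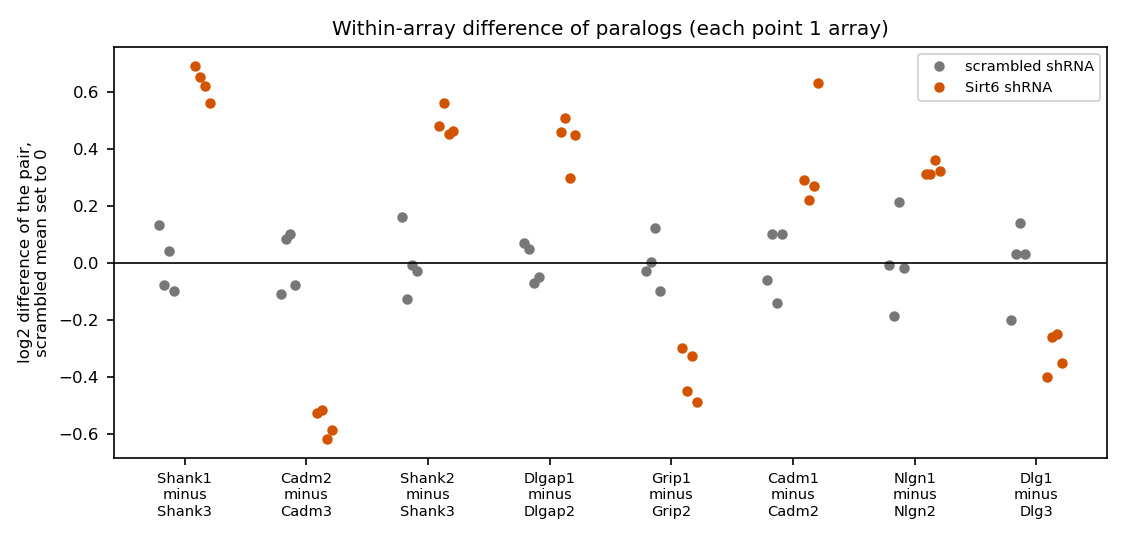
Log2 difference between the levels of 2 relatives on each array (vertical axis, the scrambled mean of each pair set to 0), for the 8 pairs with the largest shifts; each point is 1 array, 4 per group. In all 8 pairs the Sirt6 shRNA arrays lie clear of the scrambled arrays, upward by 0.63 for Shank1 minus Shank3 and downward by -0.56 for Cadm2 minus Cadm3.

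Genes whose products bind or regulate these proteins were read from 4 lists of 79 genes in all, of which 76 were tested. Among them 14 were called higher and 15 lower, 38.2% beside the 30.4% of all genes, with a median change of 0.0031. Without Sirt6 shRNA replicate 1 the count called higher was 9. Without Sirt6 shRNA replicate 2 the counts were 14 higher and 13 lower.

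Of 26 scaffold and enzyme partners 4 were called higher and 7 lower, with a median change of -0.093. The lower ones include Baiap2, the Shank and PSD-95 binding protein IRSp53, at -0.54 ± 0.054 (adjusted p = 0.000309), and Cttn, the Shank-binding actin protein cortactin, at -0.45 ± 0.035 (adjusted p = 0.000113). Apba1, the adaptor Mint1, was at -0.43, Nsf, the ATPase that binds AMPA receptors, at -0.31, and Iqsec1, an exchange factor for Arf6, at -0.28. Its relative Iqsec2 was called higher at 0.23. Homer1, whose short form is induced by activity, changed by 0.096 ± 0.074 and was not called (adjusted p = 0.363).

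Of 8 CaMKII regulators 3 were called higher and 1 lower. Nrgn, the calmodulin-binding protein neurogranin, was at 0.27 ± 0.041 (adjusted p = 0.00209), and Ppp1ca, a catalytic subunit of protein phosphatase 1, at 0.14. Ppp1r9b, the spine protein spinophilin that anchors that phosphatase, was at -0.20 ± 0.035 (adjusted p = 0.00386).

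Of 10 AMPA receptor auxiliary subunits tested 3 were called higher and 0 lower. They are the TARP genes Cacng3 at 0.36 ± 0.055 (adjusted p = 0.00222) and Cacng2, or stargazin, at 0.24 ± 0.037 (adjusted p = 0.00214), and Shisa7 at 0.28 ± 0.058 (adjusted p = 0.00949). At an unadjusted p under 0.05 in limma's test, 1 of the 10 was lower. Cnih3, the closest relative of the lower gene Cnih2, changed by -0.085 ± 0.040 and was not called (adjusted p = 0.147).

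Of 32 adhesion partners 4 were called higher and 7 lower, with a median change of 0.041. Cadm4, the other SynCAM gene, was lower at -0.33 ± 0.085 (adjusted p = 0.0212), as were Cbln1, a secreted linker that neurexins bind, at -0.30 ± 0.060 (adjusted p = 0.00688), and Ptprf, an axonal receptor phosphatase, at -0.24. Slitrk2 at 0.26, Adgrl3, a latrophilin, at 0.26 and Cbln2 at 0.25 were called higher, and for Adgrl3 the groups overlapped.

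**Figure D5:**
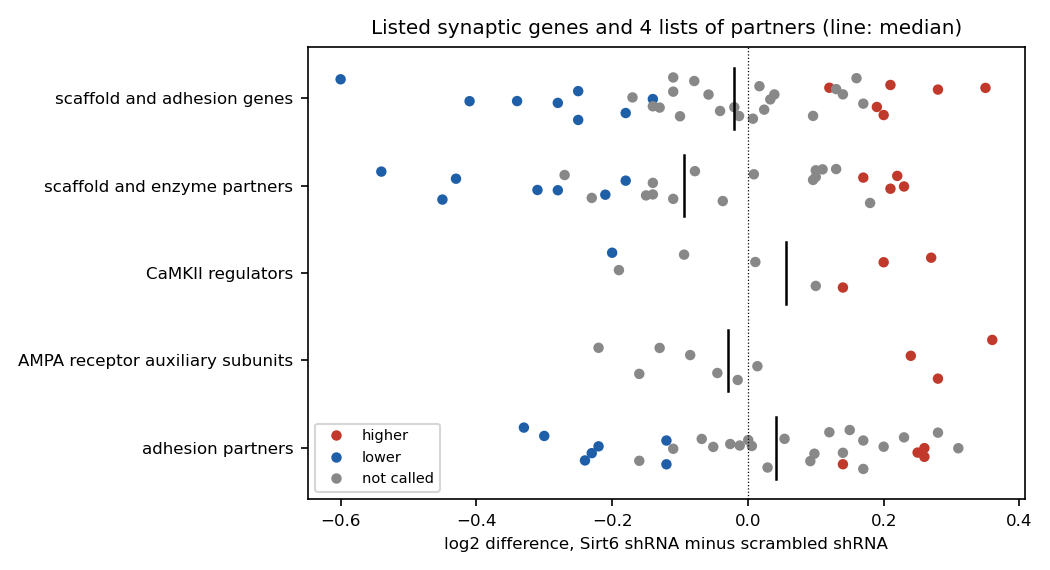
Change of each tested gene (horizontal axis, log2, Sirt6 shRNA minus scrambled shRNA) for the 35 scaffold and adhesion genes and the 4 lists of partners; each point is 1 gene, coloured by its call, the vertical line is the list's median, and the vertical scatter has no meaning. Called genes lie on both sides of 0 in each list except the AMPA receptor auxiliary subunits, where all 3 lie above it.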

How the data were processed

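The deposited array files hold, per the file headers, spot intensity values from Agilent Feature Extraction (11.5.1.1 in the submitters' processing notes), background-subtracted and detrended by that software, with no scaling between arrays. A further deposited table gives log2 values computed by the authors, of which each column differed from log2 processed signal by a constant, to within an SD of 0.0029 or less.

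Control and outlier spots were left out, spots of a probe averaged in log2, and each array's 75th percentile over 45598 probes subtracted. Probes well above background on 4 or more of the 8 arrays were kept (28620 probes). Probes were named through a RefSeq gene table of assembly GRCr8, used for names only, with 16357 probes under the name in the file. The brightest kept probe stood for each gene. The comparison used the two-sided moderated test of limma 3.58.1 (functions lmFit and eBayes; R 4.3.3), with p adjusted after Benjamini-Hochberg over all 22596 genes and called under 0.05, and single probes adjusted over all kept probes. The fit was tested on simulated data. Paralog pairs were compared with exact permutation tests. The number of arrays limits the precision.

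The members and lists were chosen with earlier results of these data known. Named were all members, with values per array by rule for those called or with mixed probes and, beyond the rule, for some others not called, and at most 6 called genes per partner list, to which Homer1, Cnih3 and Lrrtm4 were added, after their values were seen, as relatives of members. Some partner genes that were tested are not reported here by name. Probe sequences and rn4 coordinates are those of the array files. Alternatives were normexp background correction (offset 50), quantile normalization, median centring, spike-in scaling, the authors' values, looser and stricter filters on dimness, probe means per gene, every probe, the file's gene names, a trended and robust eBayes, array weights, 16 added before log2, the replicate number as a block, and leaving out each array.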

Additional observations from a re-analysis of the deposited data

Results flagged for a closer look

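In 2 of 70 groups of 4 arrays 1 array stood apart from the other three by the gap to its nearest neighbour over the group's range; chance gives about 1 in 20 such groups. The level of Lrrtm2 was -1.25 on Sirt6 shRNA replicate 3, with the others between -1.13 and -1.11. The level of Pick1 was -0.82 on scrambled replicate 1, with the others between -0.70 and -0.68. Both levels are log2 relative to the array's 75th percentile, and neither gene was called.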

How the results depend on the processing

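Over 21 alternative settings the calls of Homer3 and Cadm2 were kept in every one, 7 further calls were lost in 1 setting and 5 in several, and no change of a called gene reversed. Spike-in scaling gave the fewest calls in total. With it 3 of the 35 genes were called (1 higher, 2 lower), 9 of the partner genes (7 higher, 2 lower) and 3387 of all genes (2265 higher, 1122 lower). Median centring gave 2 of the 35 genes, 6 partner genes and 2000 of all genes called higher. With no filter on dim probes 9 partner genes were called higher. The cause of these shifts was not tested. Leaving out 1 array at a time gave 11 to 16 of the 35 genes called, 9 to 14 partner genes called higher, 10 to 16 called lower, and 5313 to 6591 of all genes, with fewer samples in each fit. The Shank1 call, 0.35, became 0.10 with the mean of its probes, and Camk2a was called there at 0.28. Of the 21 genes not called, 7 were called in some setting. Arrays of the same replicate number also share a slide column across the groups. Their deviations correlated weakly, at 0.0637, 0.160, 0.133 and 0.0330, all positive. Of the 4 arrays, 2 correlated best with their own number, which does not settle whether the samples are paired. With the replicate block 11 of the 35 genes were called, 4 higher and 7 lower, and 6425 of all genes. For the paralog pairs the smallest exact p of 0.0286 limits what adjustment can leave, so the count of 0 under normexp, quantile normalization and the mean of probes says nothing about their stability. For dim probes signal over background limits what can be seen, as for 5 member probes that were not kept.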
